A study of Mus musculus with 6 samples.

Results

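The 8 genes described here are 6 enzymes of cholesterol synthesis (*Hmgcs1*, *Fdps*, *Fdft1*, *Sqle*, *Lss* and *Cyp51*) and 2 genes of its control (*Insig1* and *Srebf2*). They were found among the 46517 Ensembl genes of the count files by matching each identifier to its symbol in GENCODE M21 on GRCm38, and all 8 had a row in each file. RNA from inguinal white adipose tissue (IngWAT) was sequenced from *Hdac3* floxed mice, which served as controls, and from H3atKO mice, with 3 samples per genotype. Each sample was a pool of RNA from 2 or 3 mice, so the spread between samples is a spread between pools and no value belongs to a single animal. Both groups were of the C57Bl6 strain, were 5 to 9 months old by the labels, ate chow under standard housing and carried floxed *Hdac3* alleles. H3atKO mice came from a cross with the B6:FVB-Tg(Adipoq-cre)1Evdr/J line, in which the adiponectin promoter drives Cre in adipocytes, so cells of IngWAT that are not adipocytes should keep *Hdac3*. The labels do not say whether floxed mice were littermates without Cre.

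Cholesterol is built from acetyl-CoA through mevalonate, farnesyl diphosphate, squalene and lanosterol. The transcription factor SREBP2, the product of *Srebf2*, activates the genes of this pathway when sterols in the endoplasmic reticulum are low, whereas INSIG proteins hold SREBP and its escort SCAP in the endoplasmic reticulum when sterols are high. SREBP1, the product of *Srebf1*, acts mainly on fatty acid synthesis, which starts from the same acetyl-CoA. Adipocytes store much of the free cholesterol of the body but are not a main site of its synthesis. The comparison below sets the sterol genes of H3atKO against floxed IngWAT and places them beside the genes of fatty acid synthesis.

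*Hdac3* itself was lower in each H3atKO pool. Where 3 values are given for a genotype, they are those of replicates 1, 2 and 3 in this order. The normalized expression of *Hdac3*, in counts scaled to library size with TMM factors (cpm), was 68.9, 80.3 and 65.8 in floxed and 27.4, 21.1 and 12.9 in H3atKO pools. The difference was -1.83 on the log2 scale (limma voom, adjusted p = 0.0213), and the groups did not overlap. It stayed between -2.11 and -1.56 without any 1 sample, and the call was kept without floxed replicate 3 and lost without each of the others (limma voom, adjusted p from 0.0534 to 0.107). Calls over all genes moved too. With all 6 samples, 1410 genes were called higher and 1058 lower. Without floxed replicates 1, 2 and 3, they were 149, 1 and 2729 higher and 90, 0 and 3828 lower. Without H3atKO replicates 1, 2 and 3, they were 199, 395 and 87 higher and 47, 139 and 20 lower. A call lost or gained on leaving out a sample need not be particular to the gene. Between 23865507 and 35200685 reads were counted on genes per sample, so 3 counts stand for 0.0852 to 0.126 cpm, a limit that covers counting error only. Genes of the mitochondrial genome took 6.92% to 12.9% of these counts in floxed and 26.9% to 35.3% in H3atKO samples. The 9 adipocyte markers examined were all detected and summed to 14843 to 38730 cpm in floxed and 15929 to 27271 cpm in H3atKO pools. *Fabp4* was the largest part of each sum (0.05, limma voom, adjusted p = 0.922) and alone had a log2 fold change above 0. Of the 9, 1 was called, *Cfd*, lower in H3atKO (-3.99, limma voom, adjusted p = 0.0223). Among markers of other cells, the 7 of brown adipocytes summed to 36.6 to 90.01 cpm in floxed and 327 to 1154 cpm in H3atKO pools. Of the 6 that were tested, 2 were called higher. *Elovl3* was the largest part of each H3atKO sum, at 722, 283 and 172 cpm, while *Ucp1* overlapped between the genotypes (2.33, limma voom, adjusted p = 0.353). Markers of endothelial cells summed to 566 to 916 cpm in floxed and 376 to 507 cpm in H3atKO pools, with 3 of 5 called lower. The part of these differences in the results below was not tested, and in bulk RNA fewer cells of a type and less RNA per cell cannot be told apart.

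Of the 8 genes, *Hmgcs1*, *Sqle*, *Cyp51* and *Insig1* were upregulated in H3atKO IngWAT, none was down-regulated, and *Fdps*, *Fdft1*, *Lss* and *Srebf2* did not pass the test (limma voom, adjusted p under 0.05). Over the 14967 genes tested, 9.42% were called higher and 7.07% lower. The median log2 fold change was 1.26 over the 8 genes and -0.09 over all genes tested. All 8 passed the filter of 1 cpm in 1 sample, *Fdps* only through floxed replicate 1. In 5 of the 8 genes every H3atKO pool was above every floxed pool, which held for 23.1% of all genes tested. In none was every H3atKO pool below every floxed pool, which held for 4284 of the 14967. The sizes of the upregulation were unequal, from 2.76-fold for *Sqle* to 11.8-fold for *Cyp51*.

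**Figure D1:**
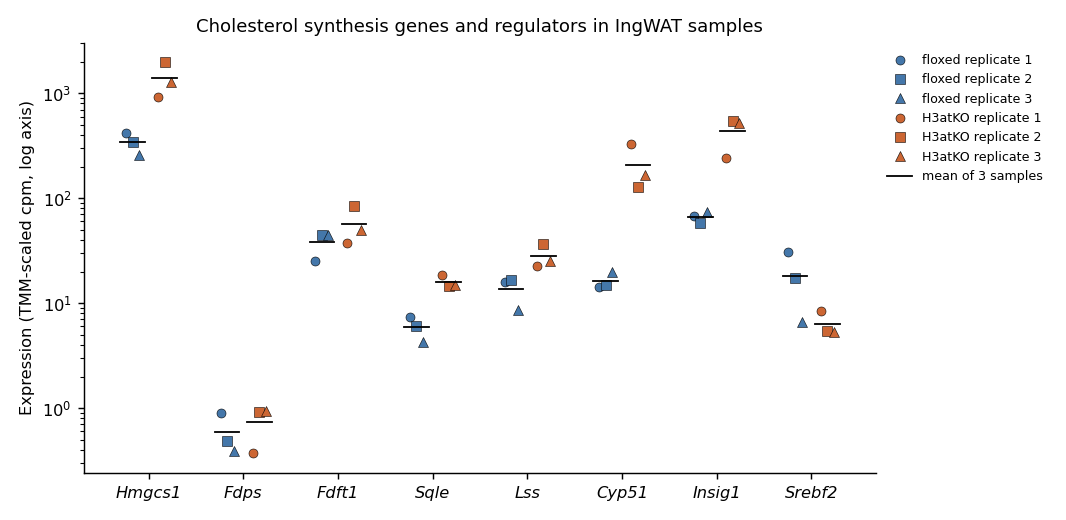
Expression of the 8 genes in each of the 6 IngWAT pools, in TMM-scaled cpm on a log axis, with blue symbols for floxed, orange symbols for H3atKO, 1 symbol shape per replicate number and a line at the mean of 3 pools. The orange symbols stand clear above the blue ones for *Hmgcs1*, *Sqle*, *Lss*, *Cyp51* and *Insig1*, overlap them for *Fdps* and *Fdft1*, and lie lower for *Srebf2*, where floxed replicate 3 falls between the H3atKO pools.

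Promoters of SREBP2 target genes commonly pair a sterol response element with a site for the factor NF-Y, and the sequences upstream of the start are shown for the 3 upregulated genes found in the RefSeq promoter table and for *Srebf2*. The table held 5 of the 8 genes (*Lss* is the fifth). The runs below are RefSeq sequence of GRCm38.p6, read 5′ to 3′ on the strand of the gene. They end before the start of the gene in both RefSeq and GENCODE, and capitals mark TCACNCCAC (an SREBP site core, N being any base) or CCAAT (an NF-Y site core) on either strand. The window of *Hmgcs1* is chr13:119690101-119690350 (plus strand), that of *Cyp51* chr5:4104747-4104947 (minus strand), that of *Insig1* chr5:28071162-28071362 (plus strand) and that of *Srebf2* chr15:82147019-82147180 (plus strand).
Hmgcs1: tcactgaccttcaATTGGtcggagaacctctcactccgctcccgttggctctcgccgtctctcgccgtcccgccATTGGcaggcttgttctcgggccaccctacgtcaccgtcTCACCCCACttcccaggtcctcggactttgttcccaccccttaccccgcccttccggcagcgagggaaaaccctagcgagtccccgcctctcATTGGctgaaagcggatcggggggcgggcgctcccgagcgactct
Cyp51: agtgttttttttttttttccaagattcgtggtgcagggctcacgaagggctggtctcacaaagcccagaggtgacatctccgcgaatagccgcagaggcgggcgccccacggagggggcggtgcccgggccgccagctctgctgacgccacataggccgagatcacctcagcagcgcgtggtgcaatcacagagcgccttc
Insig1: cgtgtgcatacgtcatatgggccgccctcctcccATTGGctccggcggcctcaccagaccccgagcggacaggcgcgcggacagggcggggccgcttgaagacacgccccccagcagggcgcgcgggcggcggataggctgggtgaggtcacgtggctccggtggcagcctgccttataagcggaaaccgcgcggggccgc
Srebf2: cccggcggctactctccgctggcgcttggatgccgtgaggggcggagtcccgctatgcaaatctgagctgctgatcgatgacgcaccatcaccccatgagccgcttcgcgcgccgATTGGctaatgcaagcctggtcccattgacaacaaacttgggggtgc

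In windows of 250 bases before the RefSeq start, TCACNCCAC was found in 1 of the 5 genes, *Hmgcs1*, where it lies 137 to 129 bases before the start, and in 1.05% of the 32851 promoters of the table. CCAAT was found in 5 of 5 windows and in 33.8% of all promoters. It occurs 3 times in *Hmgcs1*, each time as ATTGG on the printed strand, and once in *Cyp51*, 29 to 25 bases before the RefSeq start and so beyond the printed run. GGGCGG, the GC box, was found in 5 of 5 windows and in 32.7% of all promoters. CACGTG, an E-box that SREBP also binds, was found in 1 of 5, *Insig1*, and in 6.02% of all promoters, 101 to 96 bases before the start. Each of the 4 motifs was searched on both strands, CACGTG reads the same on either strand, and no match of one motif overlapped a match of another. A match of letters is a description of the window and not a binding site, and a window without a match is not shown to lack a site.

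*Hmgcs1* encodes the cytosolic HMG-CoA synthase, which makes HMG-CoA for the mevalonate pathway (ENSMUSG00000093930, chr13:119690379-119708260, plus strand). It was measured at 415, 346 and 260 cpm in floxed and at 931, 1975 and 1276 cpm in H3atKO pools. Every H3atKO pool was above every floxed pool, the lowest at 931 cpm and the highest floxed pool at 415 cpm. The log2 fold change was 1.99 (95% interval 1.21 to 2.78, limma voom, adjusted p = 0.0207). Its counts were 10691 to 38729 per sample, the deepest of the 8 genes. The call was lost without floxed replicate 2 (log2 fold change 2.02, limma voom, adjusted p = 0.0966) and without H3atKO replicate 3 (2.04, limma voom, adjusted p = 0.0792). It was also lost after correction for GC content, described below, at a log2 fold change of 1.21 (limma voom, adjusted p = 0.11), and stood at 1.21 with that correction and the replicate block together (limma voom, adjusted p = 0.0552).

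*Fdps*, farnesyl diphosphate synthase, makes the branch-point metabolite of the pathway (ENSMUSG00000059743, chr3:89093588-89101959, minus strand). Its counts were 41, 20 and 16 in floxed and 9, 18 and 15 in H3atKO pools, or 0.371 to 0.948 cpm over both groups. The groups overlapped, and the log2 fold change of 0.26 (95% interval -1.30 to 1.82, limma voom, adjusted p = 0.775) spans changes in both directions, so no difference was detectable at this depth. In GENCODE M21, 85.9% of the coding bases of *Fdps* are also exons of *Gm43738* on the same strand, a protein-coding gene with no count in the 6 samples, and 5 other genes match parts of its transcript at 90% identity or more. Reads in shared exons are given to no gene by a counter that leaves out ambiguous reads, so the level printed here is uncertain and does not stand for the whole transcript.

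*Fdft1*, squalene synthase, joins farnesyl diphosphates at the first step committed to sterols (ENSMUSG00000021273, chr14:63145150-63179578, minus strand). Its expression was 25.1, 45.1 and 44.6 cpm in floxed and 37.2, 84.3 and 49.8 cpm in H3atKO pools. The first H3atKO pool lay within the floxed range and the second far above it, and the log2 fold change was 0.54 (95% interval -0.36 to 1.44, limma voom, adjusted p = 0.299). The pseudogene *Gm6781* matches 33.8% of its transcript, and 18.3% of its exon bases lie opposite exons of *Ctsb* on the other strand. The sources used here do not give the strand setting of the counter.

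*Sqle*, squalene epoxidase, carries out the first oxygen-dependent step after squalene and is regarded as rate-limiting (ENSMUSG00000022351, chr15:59315077-59331192, plus strand). The pools held it at 7.38, 6.06 and 4.28 cpm in floxed and at 18.4, 14.4 and 14.9 cpm in H3atKO pools. The groups did not overlap, and the H3atKO pools were closer to each other than those of any other of the upregulated genes. The log2 fold change was 1.46 (95% interval 0.68 to 2.25, limma voom, adjusted p = 0.0348). This call was kept without floxed replicate 3 and lost without each of the other samples, at log2 fold changes of 1.64 and 1.49 without floxed replicates 1 and 2 and of 1.33, 1.49 and 1.51 without H3atKO replicates 1, 2 and 3 (limma voom, adjusted p from 0.0714 to 0.132).

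*Lss*, lanosterol synthase, closes the sterol rings (ENSMUSG00000033105, chr10:76531588-76557138, plus strand). Its level was 15.9, 16.7 and 8.58 cpm in floxed and 22.4, 36.6 and 25.4 cpm in H3atKO pools. The groups did not overlap, but the log2 fold change of 1.05 (95% interval 0.20 to 1.90) missed the threshold (limma voom, adjusted p = 0.0727). With the replicate number as a block it passed at a log2 fold change of 1.03 (limma voom, adjusted p = 0.0187), in a fit that called 24.8% of all genes higher and 28.7% lower.

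*Cyp51*, the lanosterol 14-demethylase, removes the first of the methyl groups on the way from lanosterol to cholesterol (ENSMUSG00000001467, chr5:4081145-4104746, minus strand). It was measured at 14.2, 14.9 and 19.8 cpm in floxed and at 326, 129 and 165 cpm in H3atKO pools. The 3 floxed pools lay close together, whereas H3atKO replicate 1 stood above the other H3atKO pools. The log2 fold change was 3.56 (95% interval 2.65 to 4.48, limma voom, adjusted p = 0.0087), the largest of the 8 genes. Without H3atKO replicate 1 or any other sample it stayed between 3.16 and 3.80, and the call was lost only without floxed replicate 2 (3.51, limma voom, adjusted p = 0.0516). That fit called 1 of 14860 genes higher and 0 lower. Exons of *Akap9* on the other strand cover 3.76% of its exon bases.

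*Insig1* encodes a sterol-sensing anchor of the SREBP and SCAP complex and is itself a target of SREBP (ENSMUSG00000045294, chr5:28071363-28078662, plus strand). Expression of the gene was 67.3, 58.2 and 73.4 cpm in floxed and 242, 539 and 521 cpm in H3atKO pools. The floxed pools were again close together, and the lowest H3atKO pool was far above them. The log2 fold change was 2.63 (95% interval 1.82 to 3.44, limma voom, adjusted p = 0.0118). The call was lost without floxed replicate 2 (2.54, limma voom, adjusted p = 0.0634) and without H3atKO replicate 3 (2.46, limma voom, adjusted p = 0.0549).

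*Srebf2*, the gene of the factor itself, showed the opposite sign (ENSMUSG00000022463, chr15:82147181-82205379, plus strand). Its level was 30.5, 17.5 and 6.59 cpm in floxed and 8.36, 5.46 and 5.31 cpm in H3atKO pools. The floxed pools spread widely, and floxed replicate 3 lay below H3atKO replicate 1. The log2 fold change was -1.28 (95% interval -2.85 to 0.29), which did not pass (limma voom, adjusted p = 0.174). It passed without floxed replicate 3 (-1.87, limma voom, adjusted p = 0.0123), in a fit that called 3828 of 14759 genes lower. With the replicate number as a block it also passed (-1.43, limma voom, adjusted p = 0.017), where 28.7% of all genes were called lower. After the GC correction the sign turned to 0.67 (limma voom, adjusted p = 0.154), so no direction of *Srebf2* RNA can be given from these samples.

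The pools differed in the other tissue they held. Markers of B and T lymphocytes summed to 4.67 to 5.76 cpm in floxed replicates 2 and 3 and H3atKO replicate 2, against 118 to 496 cpm in the other 3 pools. Within the 3 pools low in these markers, *Hmgcs1* was at 346 and 260 cpm in floxed and 1975 cpm in H3atKO, *Cyp51* at 14.9 and 19.8 against 129 cpm, *Insig1* at 58.2 and 73.4 against 539 cpm, and *Sqle* at 6.06 and 4.28 against 14.4 cpm. These are values of 1 H3atKO and 2 floxed pools, and the part of lymphocytes in the results was not tested. Skeletal muscle markers summed to 577 to 2392 cpm in floxed and to 368, 3157 and 2.47 cpm in H3atKO pools, and macrophage markers to 369 to 2142 and 335 to 599 cpm. The part of these tissues was not tested either.

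Per kilobase of exon, *Hmgcs1* had the highest level in both genotypes, at 74.1 ± 16.9 cpm per kb in floxed and 303 ± 116 cpm per kb in H3atKO (SD, n = 3). *Insig1* was second, at 21.4 ± 2.47 and 140 ± 53.9 cpm per kb, and the ranges of these genes did not overlap in either genotype. In floxed IngWAT *Fdft1* came next at 9.05 ± 2.69, and then *Cyp51* at 3.70 ± 0.69, *Srebf2* at 2.53 ± 1.67, *Lss* at 1.27 ± 0.42 and *Sqle* at 1.07 ± 0.28 cpm per kb, in which each neighbouring pair from *Cyp51* on overlapped. In H3atKO IngWAT *Cyp51* came next at 46.8 ± 23.8 cpm per kb, ahead of *Fdft1* at 13.5 ± 5.78, with no overlap between their ranges. *Sqle* and *Lss* followed at 2.87 ± 0.39 and 2.61 ± 0.70 cpm per kb, which overlapped, and *Srebf2* at 0.89 ± 0.24. *Fdps* was lowest in both, at 0.14 ± 0.06 and 0.18 ± 0.08 cpm per kb, with the limit on its counting given above. Lengths are those of all exons of a gene joined and do not follow which transcript is used.

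The rest of the sterol pathway was read from a list of 15 further enzymes, all of which were tested. Of these, 4 were upregulated and none was down-regulated (limma voom), at a median log2 fold change of 0.25. Over all genes tested, 9.42% were called higher and 7.07% lower. *Idi1*, the isomerase of isopentenyl diphosphate, was at 0.615, 0.842 and 0.559 cpm in floxed and at 2.18, 4.03 and 5.37 cpm in H3atKO pools, with a log2 fold change of 2.41 (limma voom, adjusted p = 0.0327). *Nsdhl* and *Msmo1*, which remove the C4 methyl groups, changed by 2.00 and 1.27 (limma voom, adjusted p = 0.0157 and 0.0272), and *Sc5d*, a late desaturase, by 1.56 (limma voom, adjusted p = 0.0423). For each of these 4 genes every H3atKO pool was above every floxed pool, which held for 23.1% of all genes tested. Of the 15 enzymes, 6 were called higher and 2 lower with the replicate block, against 24.8% and 28.7% of all genes. Leaving out floxed replicate 1 or 2 or H3atKO replicate 3 left 0 called, H3atKO replicate 1 or 2 left 1, and floxed replicate 3 left 7. After the GC correction *Idi1* and *Sc5d* were no longer called, at 1.48 and 0.75 (limma voom, adjusted p = 0.08 and 0.254). *Idi1* rests on 23 to 85 counts per sample, and 3 other genes match 22.6% of its transcript, so its level is uncertain.

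Among the 15 enzymes, fold changes of those reported here that were not called ranged from -3.36 for *Mvk*, mevalonate kinase, to 1.01 for *Acat2*, acetyl-CoA acetyltransferase. *Mvk* averaged 3.50 cpm in floxed and 0.253 cpm in H3atKO, with every H3atKO pool below every floxed pool, and was not called (limma voom, adjusted p = 0.105). With the replicate block both were called, *Mvk* lower at -3.64 (limma voom, adjusted p = 0.00591) and *Acat2* higher at 1.03 (limma voom, adjusted p = 0.0188). After the GC correction *Mvk* stood at -1.75 (limma voom, adjusted p = 0.212), and with the block added at -1.92 (limma voom, adjusted p = 0.0552). *Mvk* rests on 7, 8 and 1 counts in H3atKO pools. For *Acat2*, 2 other genes match 65.6% of its transcript, so its level is uncertain. Along the pathway the upregulated enzymes *Hmgcs1*, *Idi1*, *Sqle*, *Cyp51*, *Msmo1*, *Nsdhl* and *Sc5d* were interspersed with enzymes that did not pass the test.

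**Figure D2:**
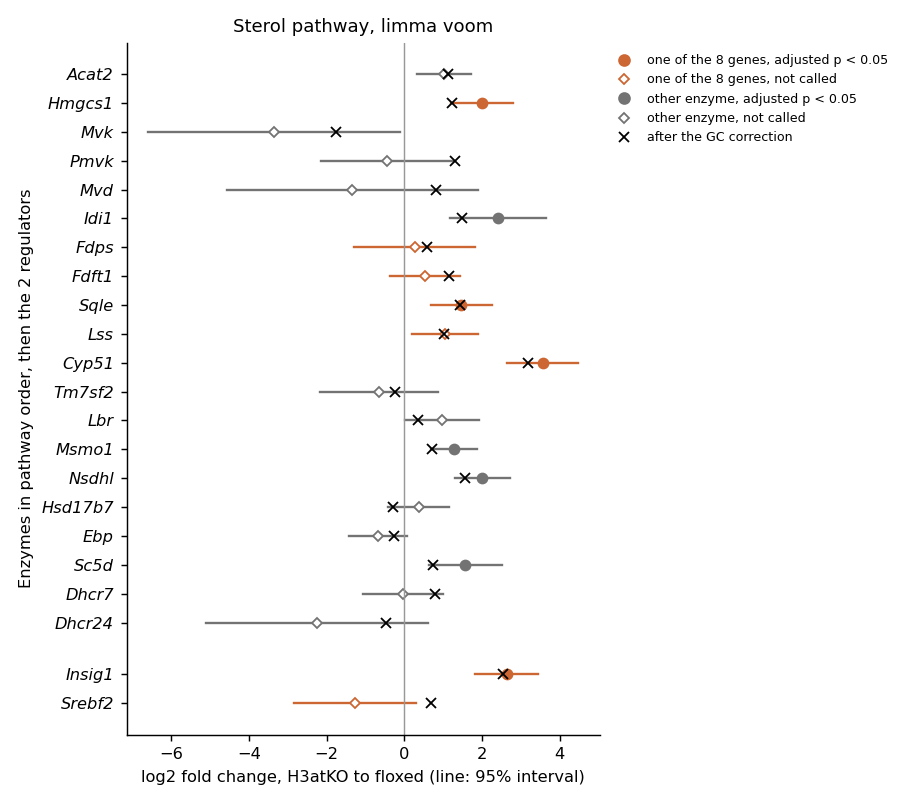
Log2 fold change of H3atKO against floxed (x axis) for enzymes of cholesterol synthesis in pathway order, followed by *Insig1* and *Srebf2* (y axis), with lines for the 95% interval of limma voom, filled circles for an adjusted p under 0.05, open diamonds for other genes and crosses for the value after the GC correction. *Cyp51* lies farthest to the right at 3.56, *Mvk* farthest to the left at -3.36, and the cross of *Srebf2* lies on the other side of 0 from its diamond.

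Other targets of SREBP2 outside the synthesis pathway were not called. Of 6 listed genes 5 were tested, the other having too few counts, and none of the 5 had an adjusted p under 0.05 with limma voom, edgeR or DESeq2, while 0, 1 and 1 had an unadjusted p under 0.05 in the same order. *Stard4*, a sterol carrier, was at 11.1 to 14.7 cpm in floxed and 16.0 to 30.9 cpm in H3atKO (0.74, limma voom, adjusted p = 0.124). With the replicate number as a block *Stard4* passed at 0.77 (limma voom, adjusted p = 0.0247), in a fit that called 24.8% of all genes higher. *Npc1*, which exports cholesterol from lysosomes, overlapped between the genotypes at a log2 fold change of 0.24 (limma voom, adjusted p = 0.629).

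Among 9 genes of SREBP processing and sterol sensing, 1 was called higher and 1 lower, at a median log2 fold change of -0.96. Over all genes tested, the shares called were 9.42% higher and 7.07% lower. *Insig2*, the paralogue of *Insig1*, was at 62.7, 68.3 and 68.7 cpm in floxed and at 514, 186 and 151 cpm in H3atKO pools (1.87, limma voom, adjusted p = 0.0367). *Mbtps1*, the protease that first cleaves SREBP, was at 61.2 to 95.9 cpm in floxed and 33.3 to 43.3 cpm in H3atKO, a log2 fold change of -0.96 (limma voom, adjusted p = 0.0493). *Scap*, the escort of SREBP, was at 30.2, 16.5 and 6.97 cpm in floxed and at 3.87, 3.21 and 1.201 cpm in H3atKO pools, without overlap, and missed the threshold (-2.56, limma voom, adjusted p = 0.0559). *Srebf1* was at 102, 38.1 and 13.3 cpm in floxed and at 6.14, 12.3 and 5.31 cpm in H3atKO (-2.33, limma voom, adjusted p = 0.0921), in counts that do not separate its isoforms. In the fit with the replicate block, 3 of the 9 were called higher and 5 lower, against 24.8% and 28.7% of all genes. Among the 5 were *Scap* (-2.66, limma voom, adjusted p = 0.0029) and *Srebf1* (-2.54, limma voom, adjusted p = 0.0136). After the GC correction *Scap* and *Srebf1* stood at -0.40 and -0.29 (limma voom, adjusted p = 0.316 and 0.67), and *Insig2* and *Mbtps1* were no longer called, at 1.46 and -0.72 (limma voom, adjusted p = 0.0982 and 0.0607).

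Of 8 genes of sterol efflux and esterification, 1 was called in each direction, against 9.42% of all genes tested called higher and 7.07% lower. *Abca1*, the main exporter of cholesterol to apolipoproteins, was at 224, 267 and 682 cpm in floxed and at 902, 1221 and 1411 cpm in H3atKO pools (1.75, limma voom, adjusted p = 0.0409). *Cyp27a1*, which makes 27-hydroxycholesterol, was at 36.8 to 52.2 cpm in floxed and 8.41 to 15.0 cpm in H3atKO (-2.04, limma voom, adjusted p = 0.0193). *Apoe* was at 660 to 2826 cpm in floxed and 93.8 to 447 cpm in H3atKO and was not called (-2.22, limma voom, adjusted p = 0.068). In the fit with the replicate block, which called 28.7% of all genes lower, *Apoe* was called lower (-2.23, limma voom, adjusted p = 0.00631). After the GC correction *Abca1* was no longer called (1.57, limma voom, adjusted p = 0.0549) and *Cyp27a1* was (-1.10, limma voom, adjusted p = 0.0359). Of the 8 genes, 4 were called without floxed replicate 3, 1 without H3atKO replicate 2 and 0 without any other sample.

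Of 9 genes that use mevalonate products for other ends, 5 were upregulated and none was down-regulated, at a median log2 fold change of 1.10. Over all genes tested, 9.42% were called higher and 7.07% lower. *Nus1*, a subunit of the enzyme that builds dolichol chains, was at 75.9, 74.1 and 109 cpm in floxed and at 327, 376 and 384 cpm in H3atKO pools (2.09, limma voom, adjusted p = 0.00946). *Pdss1* and *Pdss2*, which build the tail of ubiquinone, changed by 1.76 and 1.18 (limma voom, adjusted p = 0.0327 and 0.0422). *Ggps1* and *Pggt1b*, which make geranylgeranyl diphosphate and attach it to proteins, changed by 1.10 and 1.40 (limma voom, adjusted p = 0.0386 and 0.043). With the replicate block, 5 of the 9 were called higher and 2 lower, against 24.8% and 28.7% of all genes. Without floxed replicate 3 there were 6 calls among the 9 genes, without floxed replicate 2 there were 0, and without each of the other samples 1. The 5 upregulated genes had GC contents of 39.2% to 46.9%, and 1 of the 9 was called after the GC correction, *Nus1* (1.21, limma voom, adjusted p = 0.0182).

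Fatty acid synthesis was the pathway set against sterol synthesis. Of its 16 listed genes 15 were tested (*Scd4* had too few counts). Of these, 7 were upregulated and 1 down-regulated, against 9.42% and 7.07% of all genes tested, at a median log2 fold change of 1.51. Over the 8 sterol genes it was 4 upregulated and a median of 1.26, and over the 15 other sterol enzymes 4 and a median of 0.25. With the replicate block, 10 of the 15 were called higher and 3 lower, against 24.8% and 28.7% of all genes. Without the block, leaving out floxed replicate 2 or H3atKO replicate 3 left 0 and 3 calls in either direction. The lists were compared by these counts and medians only, and the difference between them was not tested. *Elovl6*, the elongase of C16 fatty acids, was at 14.4, 16.3 and 57.3 cpm in floxed and at 874, 270 and 1108 cpm in H3atKO pools (4.76, limma voom, adjusted p = 0.0148). *Scd2*, a desaturase, changed by 4.13 and *Me1*, malic enzyme, by 3.93 (limma voom, adjusted p = 0.0106 and 0.00615), both above *Cyp51*. *Acss2*, cytosolic acetyl-CoA synthetase, and *Elovl5* changed by 2.98 and 3.00 (limma voom, adjusted p = 0.00867 and 0.0087).

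*Fasn*, fatty acid synthase, was at 420, 111 and 195 cpm in floxed and at 975, 1484 and 947 cpm in H3atKO pools, with no overlap (2.42, limma voom, adjusted p = 0.0272). This call was lost without floxed replicate 2 (1.96) and without H3atKO replicate 1 (2.49), 2 (2.16) or 3 (2.54), at limma voom adjusted p from 0.0626 to 0.104. *Acaca*, acetyl-CoA carboxylase, was at 118 to 154 cpm in floxed and 420 to 576 cpm in H3atKO (1.76, limma voom, adjusted p = 0.0126). *Acly*, which makes cytosolic acetyl-CoA for both pathways, was at 84.6 to 107 cpm in floxed and 154 to 453 cpm in H3atKO and was not called (1.16, limma voom, adjusted p = 0.0853). *Scd1*, the most abundant of these genes, was at 20494 to 33640 cpm in floxed and 49970 to 63439 cpm in H3atKO and was not called (0.99, limma voom, adjusted p = 0.0576). With the replicate block both passed, *Acly* at 1.15 (limma voom, adjusted p = 0.0281) and *Scd1* at 1.00 (limma voom, adjusted p = 0.0448). A processed pseudogene matches 64.3% of the transcript of *Acaca*, and 3 other genes match 60.1% of that of *Me1*, so reads of these genes could be split. *Mlxipl*, the gene of the lipogenic factor ChREBP, was at 30.4 to 74.2 cpm in floxed and 6.51 to 16.0 cpm in H3atKO (-2.16, limma voom, adjusted p = 0.0343), and after the GC correction it stood at -0.50 (limma voom, adjusted p = 0.193). Its call was kept without floxed replicate 3 and lost without each of the other samples. Counts per gene do not separate the isoforms of ChREBP, so no single isoform can be read from them.

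A ratio of counts within a sample does not depend on how the libraries are scaled, and so each sterol gene was divided by *Fasn* in the same pool, which shows unequal change but not which of the 2 genes changed. *Hmgcs1* had 0.988, 3.13 and 1.33 reads per read of *Fasn* in floxed and 0.955, 1.33 and 1.35 in H3atKO pools, and the groups overlapped. For *Insig1* the ratios were 0.161, 0.527 and 0.376 in floxed and 0.248, 0.363 and 0.55 in H3atKO, which also overlapped. *Cyp51* had 0.0339, 0.135 and 0.101 reads per read of *Fasn* in floxed and 0.334, 0.0867 and 0.174 in H3atKO, and its mean log2 ratio was higher in H3atKO by 1.15 with overlapping groups. *Lss* fell by 1.35, *Fdft1* by 1.87 and *Fdps* by 2.08 in mean log2 ratio, and *Srebf2* by 3.70, in each case with every H3atKO pool below every floxed pool. *Sqle* lay between, at -0.96 with overlap. Such separation downwards held for 4 of the 8 genes and for 68.7% of all genes, since *Fasn* itself was upregulated, and no test was made of these ratios. Without floxed replicate 2, which had the lowest count of *Fasn*, the difference was 0.06 for *Hmgcs1* and -0.72 for *Lss*, it was 0.55 for *Cyp51* without floxed replicate 1, it ranged from -2.65 to -1.27 for *Fdft1* without floxed replicate 1 or 2, and it changed sign for *Insig1* without floxed replicate 1 (-0.28) or H3atKO replicate 3 (-0.08).

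**Figure D3:**
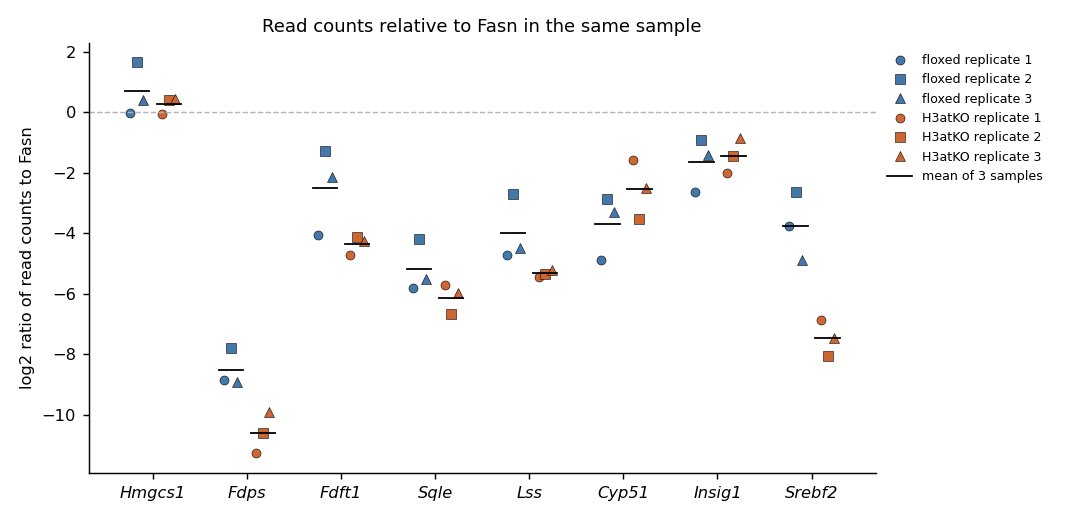
Log2 ratio of read counts of each of the 8 genes to those of *Fasn* in the same pool (y axis), with blue symbols for floxed, orange symbols for H3atKO, 1 shape per replicate number and a line at the mean of 3 pools. *Hmgcs1* lies near or above the dashed line of equal counts in both genotypes, with floxed replicate 2 farthest above it, *Cyp51* and *Insig1* overlap between the genotypes, and the H3atKO pools of *Srebf2* lie below every floxed pool.

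Fold changes followed the GC content of genes in these libraries. Over 14922 genes with a GC content, the Spearman rho of the log2 fold change with the GC content of the longest transcript was -0.71, a description across genes that share the same 6 libraries. For single pools, set against the average of all 6, rho came to 0.8, 0.62 and 0.1 for floxed and to -0.43, -0.5 and -0.71 for H3atKO, so GC content orders the genotypes and cannot be told apart from them. The 8 genes had a median GC content of 48.7%, against 49.2% over all genes tested, with *Hmgcs1* lowest at 43.1% and *Srebf2* highest at 57.9%. *Fasn* lay at 57.9% as well.

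In a fit corrected by a smooth curve of GC content for each pool, which would take away genotype effects that run along GC content too, 3 of the 8 genes were called higher, where 5.39% of all genes were called higher and 3.11% lower. These were *Cyp51* (3.17, limma voom, adjusted p = 0.0119), *Insig1* (2.54, limma voom, adjusted p = 0.0134) and *Sqle* (1.42, limma voom, adjusted p = 0.0331). In this fit the 8 log2 fold changes were all above 0, from 0.59 for *Fdps* to 3.17 for *Cyp51*, with a median of 1.18. Of the 8, 5 were not called. Over all genes tested, 7626 of 14967 were above 0, and the median was 0.017. *Fdft1* moved to 1.16 (limma voom, adjusted p = 0.133), and passed when the replicate block was added (1.17, limma voom, adjusted p = 0.018). With the block added, 1944 of 14967 genes were called higher. Fatty acid synthesis had 10 of 15 genes called higher and none lower in the fit with the GC correction alone, at a median of 2.28, with *Fasn* at 4.38 (limma voom, adjusted p = 0.0116). The mean log2 ratio of the 8 genes to *Fasn* then differed by -3.71 to -1.203 between the genotypes, each lower in H3atKO, and for *Cyp51* and *Insig1* this was a change of sign from the uncorrected ratio. For *Cyp51* the groups still overlapped. With *Fasn* at 4.38, the ratio to it would fall for most genes. The share of all genes with a lower corrected ratio was not counted.

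**Figure D4:**
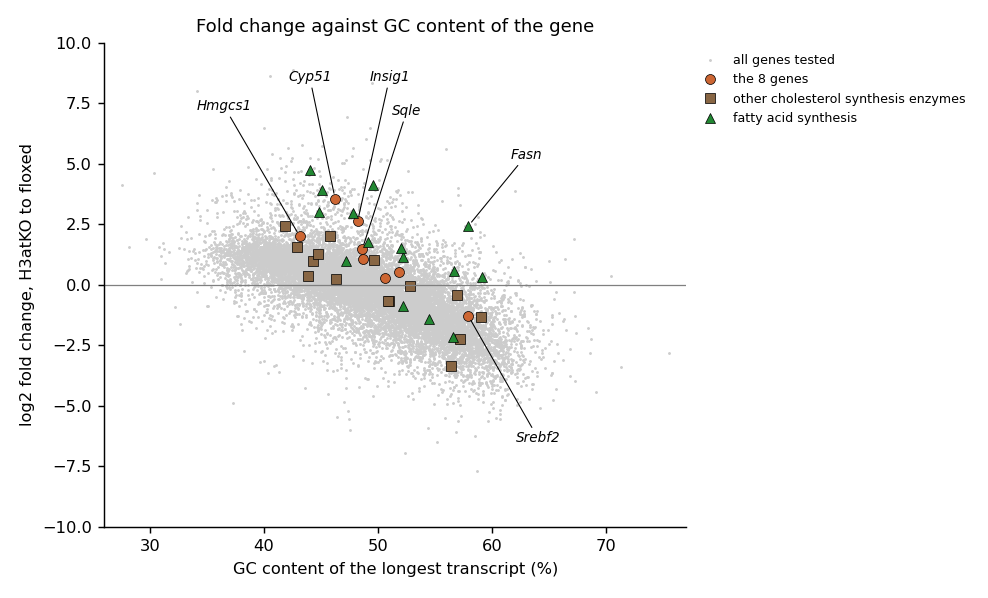
Log2 fold change of H3atKO against floxed (y axis, limma voom) against the GC content of the longest transcript in % (x axis), with a grey point for each gene tested, circles for the 8 genes, squares for other enzymes of cholesterol synthesis and triangles for fatty acid synthesis. The grey cloud slopes down (Spearman rho -0.71). *Cyp51* and *Insig1* lie above it at their GC content, and *Fasn* lies above it at the GC content where *Srebf2* lies inside it.

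The scaling of libraries mattered as well. When only library sizes were used for scaling, the median log2 fold change of all genes moved by -0.85, and 306 genes were called higher and 5667 lower in place of 1410 and 1058. In that fit *Cyp51* stood at 2.71, *Insig1* at 1.77 and *Hmgcs1* at 1.14, each called higher by limma voom. *Sqle* stood at 0.60 (limma voom, adjusted p = 0.277), *Fdft1* and *Fdps* turned to -0.29 and -0.54, and *Srebf2* was called lower at -2.15 (limma voom, adjusted p = 0.0341). Leaving the genes of the mitochondrial genome out of counts and library sizes kept 4 of the 8 genes called higher and none lower.

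Across the 6 pools the 8 genes did not share 1 profile. The Pearson r of each gene's log2 cpm with the mean of the other 7 was 0.98 for *Hmgcs1*, 0.94 for *Sqle*, 0.92 for *Lss*, 0.91 for *Insig1*, 0.74 for *Cyp51*, 0.44 for *Fdft1*, 0.42 for *Fdps* and -0.64 for *Srebf2*, each over 6 samples that differ in genotype, depth and base composition. Outside the pathway lists, genes whose profile was among the most like the mean of the 8 were *Timm17a* (r = 0.997), *Acad11* (0.995), *Acadm* (0.994) and *Tlnrd1* (0.993), of 8341 genes compared, 113 of which reached 0.95. *Timm17a* encodes a subunit of a mitochondrial import channel, and *Acad11* and *Acadm* encode enzymes of fatty acid oxidation. Their log2 fold changes were 0.88, 1.73 and 1.32, and that of *Tlnrd1* was 0.34, as a description with no test. These genes were picked, over the same pools, by likeness to a mean that was higher in every H3atKO than every floxed pool.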

How the data were processed

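IngWAT RNA of *Hdac3* floxed and H3atKO mice was measured in 3 pools per genotype, grouped by the sample labels. The authors deposited raw read counts per gene, with no normalization. Poly(A)-selected stranded libraries were trimmed with Cutadapt 1.3, aligned to GRCm38 with STAR 2.4.2a and counted with htseq-count 0.6.1 on Ensembl release 82. The counter leaves out reads with several places or genes, and 5 tally lines per file were set aside. The tally of reads with several places was 28.3% to 35.2% of all gene counts and tallies in floxed samples. In H3atKO samples it was 43.8% to 45.5%, and its part in the results was not tested. PCR copies were not marked.

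The 14967 genes that reached 1 cpm in any sample were scaled with TMM (edgeR 4.0.16) and compared by limma 3.58.1 voom in R 4.3.3, as in the methods of the study. Calls are Benjamini-Hochberg adjusted p under 0.05 over all genes, a threshold the study does not state. Symbols, lengths and GC content came from GENCODE M21 (46005 of 46517 identifiers matched). p-values measure the spread between pools.

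Same-numbered samples deviated together (Pearson r of deviations 0.51, 0.39 and 0.26 for numbers 1, 2 and 3, against -0.29 to -0.05 for other pairs), so the numbers of the labels were treated as pairs in the fit with the replicate block. The labels give only replicate numbers and name no pairs, and these correlations come from the same counts that the fit tests. The rho with GC content also fell from number 1 to 3 in both genotypes. Its part in the shared deviations was not tested.

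The members and the gene lists were chosen with earlier results of these data known. Named are the 8 genes, the genes called in each list (up to 3 by p where fewer were called), *Srebf1*, *Fasn*, *Acly*, *Acaca*, *Scd1*, *Hdac3* and genes among the 5 most alike, with a mean of at least 3 log2 cpm. A few genes that this rule also takes are not reported here, though the list counts include them. *Mvk* and *Acat2* were named after their values were seen, as the ends of a range. *Fabp4*, *Cfd*, *Elovl3* and *Ucp1* were named likewise, to describe the sums of markers. Copies were matches of at least 200 bases at 90% identity. Ratios used a pseudocount of 0.5 reads, and the GC curve a loess span of 0.3.

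Alternatives were edgeR's quasi-likelihood test, DESeq2 1.42.0, library sizes alone, RLE factors, no mitochondrial genes, no filter, at least 10 counts in every sample, quality weights, the replicate block, the GC correction, both together, and leaving out each sample. The fits were tested on simulated data. The simulated counts held no trend with GC content or replicate number, so they do not show how the fits handle such trends. No values of other assays were used.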

Additional observations from a re-analysis of the deposited data

How the results depend on the processing

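Of the 8 genes, 4 were called higher and none lower. Leaving out 1 sample gave 0 to 4 higher (none without floxed replicate 2, 1 without H3atKO replicate 3) and 0 to 1 lower. *Srebf2* made 1 lower call with DESeq2, library sizes alone, quality weights and the replicate block. Other cholesterol enzymes (4 called in either direction) came to 8 with DESeq2, 8 with quality weights, 8 with the block, 2 with the GC correction and 0 to 7 on leaving out 1 sample. Other SREBP2 targets (0) came to 1 with library sizes alone, 1 with quality weights, 1 with the block and 0 on leaving out any sample. SREBP processing (2) came to 6 with edgeR, 7 with DESeq2, 6 with library sizes alone, 1 with RLE factors, 1 with no filter, 5 with at least 10 counts, 8 with quality weights, 8 with the block, 1 with the GC correction, 4 with the block and GC correction, and 0 to 8 on leaving out 1 sample, 8 of them without floxed replicate 3 and 0 without any other. Efflux (2) came to 5 with quality weights, 1 with the GC correction and 0 to 4 on leaving out 1 sample. Mevalonate branches (5) came to 2 with no filter, 8 with quality weights, 1 with the GC correction, 3 with the block and GC correction, and 0 to 6 on leaving out 1 sample. Fatty acid synthesis (8) came to 13 with quality weights, 13 with the block and 0 to 11 on leaving out 1 sample, with 0 without floxed replicate 2 and 3 without H3atKO replicate 3. Of all genes, 1410 higher and 1058 lower calls became 2935 and 3465 with DESeq2, 306 and 5667 with library sizes alone, 4003 and 4440 with quality weights, 3717 and 4290 with the block, and 807 and 465 with the GC correction. Lower calls became 2749 with edgeR and 1864 with at least 10 counts. Leaving out 1 sample gave 1 to 2729 higher and 0 to 3828 lower calls, least without floxed replicate 2 and most without floxed replicate 3. Of the genes named from the lists, those whose call changed with the block are given beside the results, and it ended no call of the 4 upregulated genes.

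Signs turned with library sizes alone for *Fdps* (-0.54), *Fdft1* (-0.29), *Stard4* (-0.09) and *Npc1* (-0.61), where all genes moved by -0.85. They turned with the GC correction for *Srebf2* (0.67), *Npc1* (-0.20) and *Apoe* (0.03), and with the block and GC correction for *Srebf2* (0.61) and *Npc1* (-0.21). *Npc1* also turned without H3atKO replicate 1 (-0.068). Beyond these, the cause of the differences was not tested. *Fdps* had no value with at least 10 counts in every sample or without floxed replicate 1, where it failed the filter. With 9 to 41 counts, its depth limits what could be detected.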
